A study of Mus musculus with 2 samples.

Results

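The 6 genes described here, S100a8, S100a9, Lcn2, Slpi, Defb6 and Camp, encode secreted proteins that act against microbes at body surfaces. They were chosen by symbol, and all 6 were found among the 32285 genes of the deposited annotation. Their transcripts were counted in single cells of the dorsal skin of male C3H/HeN mice, whose backs had been shaved at 7 weeks of age and whose skin was taken at 9 weeks. The control group received vehicle, and the AGA (androgenetic alopecia) model was injected under the skin each day with testosterone propionate (TP, 0.5 mg). Skin of 15 mice was pooled in each group and gave 1 library, so animals cannot be told apart, and no difference between the groups could be tested. A further group that also received an antibody is not analysed here.

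S100a8 and S100a9 are calcium-binding proteins that pair to form calprotectin, which withholds metal ions from microbes and is the most abundant cytosolic protein of neutrophils. Lcn2 (lipocalin 2) binds the siderophores with which bacteria take up iron, and Slpi (secretory leukocyte peptidase inhibitor) blocks neutrophil serine proteases and is itself antimicrobial. Defb6 is a beta-defensin, a small cationic peptide, and Camp encodes the precursor of the cathelicidin peptide CRAMP. Keratinocytes and neutrophils are the best known sources of these proteins in skin, and cytokines such as IL-17 and IL-1 raise several of them in inflamed epidermis. Androgens act through a nuclear receptor that binds DNA.

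All 6 genes were matched in RefSeq (build GRCm38.p6, the mm10 assembly). S100a8 lies on chromosome 3 from 90669071 to 90670034 on the plus strand, and S100a9 lies on the same chromosome from 90692630 to 90695721 on the minus strand, 22595 bases away. Lcn2 (32384637 to 32387739, minus strand) and Slpi (164354070 to 164356507, minus strand) lie on chromosome 2, Defb6 lies on chromosome 8 (19225478 to 19228209, plus strand), and Camp on chromosome 9 (109847377 to 109849456, minus strand). The 250 bases before the annotated start of 3 of them are shown 5′ to 3′, because S100a8 and S100a9 are neighbours whose levels parted between cell classes, and because Defb6 had the highest level of the 6 genes over all kept cells. Capitals mark matches of 5 motifs searched on both strands: kB (GGGANNNNCC), C/EBP (TTGCNNAA), AP-1 (TGANTCA), the TATA box (TATAAA) and a half-site of the androgen response element (AGAACA).
S100a8 (chr3:90668821-90669070, plus strand): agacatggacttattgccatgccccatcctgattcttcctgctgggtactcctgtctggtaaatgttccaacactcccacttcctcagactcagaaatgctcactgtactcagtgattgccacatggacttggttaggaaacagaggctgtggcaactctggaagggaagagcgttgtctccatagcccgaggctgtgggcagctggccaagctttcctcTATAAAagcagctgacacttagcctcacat
S100a9 (chr3:90695722-90695971, minus strand): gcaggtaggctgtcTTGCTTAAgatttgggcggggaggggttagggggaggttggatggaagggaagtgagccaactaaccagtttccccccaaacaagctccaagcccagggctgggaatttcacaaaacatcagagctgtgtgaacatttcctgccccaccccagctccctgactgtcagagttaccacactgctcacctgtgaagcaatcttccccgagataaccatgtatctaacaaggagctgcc
Defb6 (chr8:19225228-19225477, plus strand): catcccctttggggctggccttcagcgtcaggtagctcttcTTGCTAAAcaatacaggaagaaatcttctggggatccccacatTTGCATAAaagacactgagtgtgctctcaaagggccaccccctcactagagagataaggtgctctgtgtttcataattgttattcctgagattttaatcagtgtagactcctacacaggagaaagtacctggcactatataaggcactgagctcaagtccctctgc

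In these windows the exact letters TATAAA were found in S100a8, 30 to 25 bases before the start, and in none of the other 5 genes. Other forms of a TATA box were not searched, and the Defb6 window holds tatataag near its start. The C/EBP letters were found in S100a9, Lcn2, Slpi and Defb6, with 1 match each in S100a9, Lcn2 and Slpi. Defb6 held 2 such matches, from 209 and from 166 bases before its start. No match of kB, AP-1 or the androgen half-site lay in any of the 6 windows, and no matches overlapped. Among 32851 windows of the same length, 17.6% held kB, 9.56% C/EBP, 6.75% AP-1, 12.4% the TATA letters and 16.1% the androgen half-site. A match is a string of letters and was not shown to be bound.

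After the study's limits and removal of doublets, 39076 control cells (median 2055 UMIs, unique molecular identifiers that each stand for 1 captured transcript) and 18542 TP cells (median 4805 UMIs) were kept. Clusters were drawn without the 6 genes and named from markers, with the ending -like, which gave 17 classes. These include upper hair follicle, interfollicular epidermis (IFE), dermal papilla cells (DPC), dermal fibroblasts (DF) and neutrophils. In the upper hair follicle-like class all 7 markers reached 10 UMIs in each library, as did all 7 of the DPC-like and all 6 of the endothelial-like class. Of 8 neutrophil markers 4 did so in the 9 control and 7 in the 38 TP neutrophil-like cells. The 2 libraries differed in makeup as well as in depth. Upper hair follicle-like cells made up 2.66% of control and 7.33% of TP cells, DPC-like cells 10.5% and 9.00%, inner root sheath-like cells 14.5% and 5.02%, and 34.0% and 12.6% of cells stayed unnamed. The libraries shared 303 barcode sequences. Levels are UMIs of a gene per 1000000 UMIs of a class (CPM) with 95% intervals for counting error only, and the level in inner root sheath-like cells was read as the background of free RNA. That background for S100a8 was 1.72 CPM (control) and 1.83 CPM (TP), and it was 0.529 and 1.06 CPM for S100a9, 0.0661 and 0 CPM for Lcn2, 0.265 and 0.456 CPM for Slpi, 11.8 and 22.2 CPM for Defb6, and 0.463 and 0.152 CPM for Camp.

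**Figure D1:**
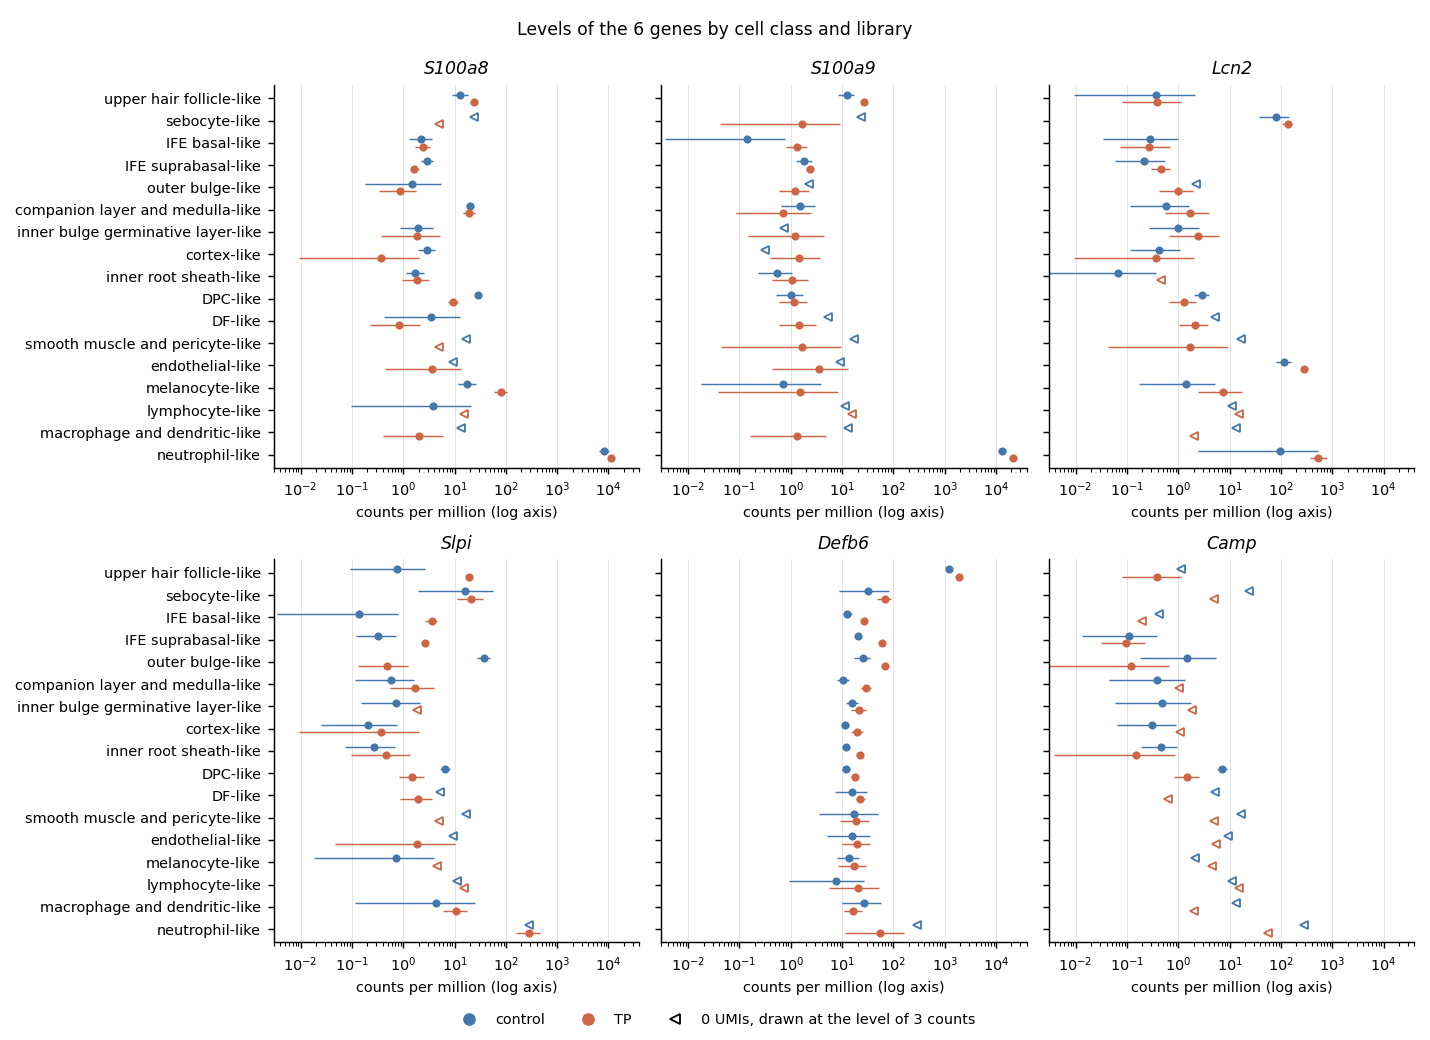
Level of each gene in CPM (log axis) in the 17 cell classes, control in blue and TP in orange, with exact Poisson 95% intervals as bars; an open triangle marks a class with 0 UMIs and stands at the level of 3 counts. Defb6 stood at 1223 and 1908 CPM in upper hair follicle-like cells, while S100a8 and S100a9 were highest in neutrophil-like cells.

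The genes were grouped as epithelial antimicrobial proteins. By measured level, the highest class was not epithelial for S100a8, S100a9, Lcn2 and Camp in either library. For Lcn2 in control and Camp in TP its interval overlapped that of an epithelial class, so this is not shown for them there. Among the 6 genes, Defb6 alone was highest in an epithelial class, upper hair follicle-like cells, in each library. S100a8 and S100a9 were highest in neutrophil-like cells in each library. Lcn2 was highest in endothelial-like cells in control, where the interval of neutrophil-like cells (1 UMI) overlapped theirs, and in neutrophil-like cells in TP, with endothelial-like cells next, so a different order in the libraries is not shown. In control the intervals of endothelial-like (80.0 to 157 CPM) and of neutrophil-like cells both overlapped that of sebocyte-like cells (37.7 to 145 CPM), an epithelial class. Slpi was highest in outer bulge-like cells in control (37.1 CPM, overlapping sebocyte-like cells), where 0 UMIs in the 9 neutrophil-like cells allow up to 286 CPM, and in neutrophil-like cells in TP, so a different highest class is not shown. The measured order of outer bulge-like and upper hair follicle-like cells differed, at 37.1 and 0.746 CPM in control and 0.484 and 19.5 CPM in TP. It rests on few cells. The 50 outer bulge-like UMIs of control lay in 6 cells, and 3 cells held 146 of the 152 upper hair follicle-like UMIs of TP. Counting intervals do not cover such a spread between cells. Camp was highest in DPC-like cells in each library, although in TP their interval (0.823 to 2.52 CPM) overlapped that of upper hair follicle-like cells (0.385 CPM, 0.0794 to 1.13), and the neutrophil-like cells had 0 Camp UMIs, which allows up to 286 CPM in control and 55.9 CPM in TP.

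Over all kept cells, 5 of the 6 genes stood higher in TP and Camp stood lower. Defb6 had 4853 UMIs in control and 20015 in TP, or 45.45 and 152 CPM, a ratio of TP over control of 3.34 (95% interval 3.24 to 3.45). S100a9 had 247 and 1580 UMIs, or 2.31 and 12.0 CPM, a ratio of 5.18 (4.53 to 5.95). The intervals of Defb6 and of S100a9 were narrow, while the next genes rested on fewer molecules. Lcn2 had 115 and 368 UMIs (1.08 and 2.79 CPM), a ratio of 2.59 (2.10 to 3.22). Slpi had 170 and 453 UMIs (1.59 and 3.44 CPM), a ratio of 2.16 (1.81 to 2.59). Camp had 129 and 34 UMIs (1.21 and 0.258 CPM), a ratio of 0.213 (0.142 to 0.314). S100a8 had 815 and 1177 UMIs (7.63 and 8.93 CPM), with the smallest difference, a ratio of 1.17 (1.07 to 1.28). With a pseudocount of 0.1 per 10000 counts, Defb6 was the 1 member at least 2-fold higher and no member was 2-fold lower, where 1.7% of 17567 genes with at least 50 UMIs were higher and 0.877% lower. That pseudocount exceeds the control level of every member but Defb6, so the others could not be called lower even with no TP UMIs. It also exceeds the TP levels of S100a8, Lcn2, Slpi and Camp, which could not be called higher. By the plain ratio, an alternative added after the values were seen, 4 of the 6 were at least 2-fold higher and 1 lower, where 8.22% and 10.9% of the 17567 genes were.

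**Figure D2:**
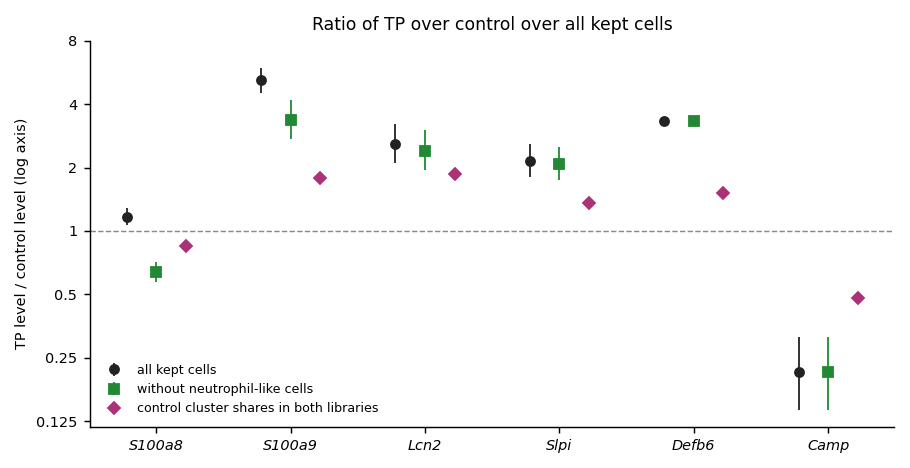
Ratio of the TP level over the control level (log axis; the dashed line marks equal levels) over all kept cells, without neutrophil-like cells, and with both libraries given the control shares of clusters; bars are exact 95% counting intervals, not drawn for control shares. S100a8 crossed the line from 1.17 to 0.637 without neutrophil-like cells, and Defb6 moved from 3.34 to 1.52 with control shares.

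These sums over all cells moved with the makeup of the libraries. When each cluster was given its share of the control library, the ratios of TP over control were 0.845 for S100a8, 1.79 for S100a9, 1.87 for Lcn2, 1.36 for Slpi, 1.52 for Defb6 and 0.479 for Camp. Leaving out the 47 neutrophil-like cells turned S100a8 to 0.637 (0.570 to 0.711), on 729 control and 573 TP UMIs, and took S100a9 to 3.36 (2.72 to 4.19). The other 4 ratios lay between 0.213 and 3.34, each within its interval over all cells. In a sum over cells, more cells of a type and more RNA per cell cannot be told apart, so the genes are described below class by class.

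Defb6 was the most concentrated in 1 epithelial compartment. Upper hair follicle-like cells, marked by Krt79, Krt17 and Cst6, held 67.5% of all Defb6 UMIs in control and 74.3% in TP. The class had 3278 UMIs in 1038 control cells (1223 CPM, 1182 to 1266) and 14878 UMIs in 1360 TP cells (1908 CPM, 1878 to 1939), a ratio of 1.56 (1.502 to 1.62). This ratio was under 2-fold, and it was 1.80 with a TMM factor of the class. After each cell was thinned to 1000 UMIs, 24.97% of 905 control cells (22.2 to 27.9) and 39.1% of 1316 TP cells (36.4 to 41.75) held a Defb6 UMI, against 1.15% and 2.10% of inner root sheath-like cells. Unthinned shares were 31.8% and 54.0%, at median depths of 1800 and 3718 UMIs in upper hair follicle-like cells and of 2022 and 4129 in inner root sheath-like cells. The transcript was unevenly spread among cells. In control 88 cells with at least 10 UMIs held 81.8% of the class's Defb6 UMIs, and in TP 318 such cells held 90.8%, with highest values of 131 and 297 UMIs in a cell.

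Within the upper hair follicle-like class the Defb6 level differed in some subclusters. In the one with the highest level it did not, but that subcluster's share of the class did differ. The subcluster led by Krt16, Krt6b and Sprr1b, keratinocyte genes of differentiation and stress, stood at 2393 CPM in control (2300 to 2488; 175 cells), against 2397 CPM in TP (2352 to 2442; 409 cells), a ratio of 1.00 (0.959 to 1.05). Its share of the class was 16.9% in control and 30.1% in TP. Of the other subclusters 3 stood higher in TP. The one led by Ephb2 and Myo5b stood at 823 and 1390 CPM (ratio 1.69, 1.52 to 1.88), the one led by Krt15 and Ifitm3 at 483 and 1522 CPM (ratio 3.15, 2.69 to 3.71), and the one led by Gfra1 and Vsnl1 at 178 and 542 CPM (ratio 3.05, 2.41 to 3.90). The one led by Cdh6 and Sox5 did not, at 366 CPM (287 to 460) in 60 control cells, against 309 CPM (194 to 468) in 19 TP cells, with overlapping intervals. By markers, the Gfra1-led subcluster scored highest as IFE basal and the Krt15-led one stayed unnamed, and both were kept in the class after the clusters were seen. With the control shares of subclusters in both libraries, an alternative added after the values were seen, the ratio of the class was 1.26.

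**Figure D3:**
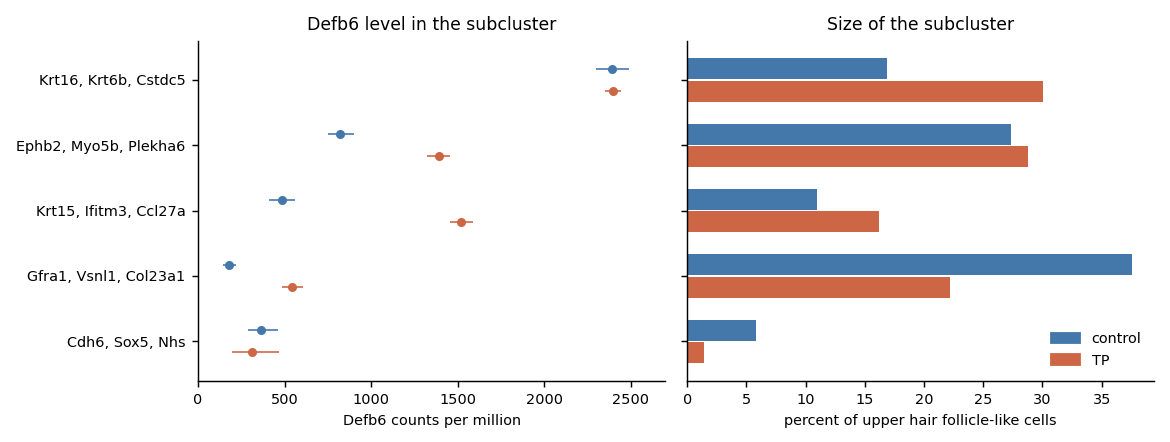
Left, Defb6 level in CPM with exact Poisson 95% intervals in 5 subclusters of upper hair follicle-like cells, each labelled by its 3 leading genes within the class; right, the percent of the class's cells in each subcluster. Control is blue and TP orange; the uppermost subcluster has overlapping levels in the libraries (2393 and 2397 CPM) and a larger share of the class in TP (16.9% and 30.1%).

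Outside this class Defb6 stood near the background in most classes, which had 7.54 to 31.5 CPM in control, apart from 0 UMIs in the 9 neutrophil-like cells. Among named classes sebocyte-like cells came next in each library, with intervals that overlapped those of the classes after them, at 4 UMIs in control (31.5 CPM, 8.58 to 80.6) and 41 in TP (67.4 CPM, 48.4 to 91.5). In TP, IFE suprabasal-like cells, the differentiating layers marked by Krt1 and Krt10, stood at 60.5 CPM against 20.6 CPM in control, a ratio of 2.93 (2.63 to 3.27). Outer bulge-like cells, the stem cell region of the follicle, stood at 67.2 CPM against 25.2 CPM, a ratio of 2.67 (1.89 to 3.89), and 12 of 1544 TP cells held 304 of their 556 UMIs. The background itself was higher in TP, with a ratio of 1.88 (1.496 to 2.35) in inner root sheath-like cells. In an unnamed cluster of shallow cells led by the haemoglobin genes Hbb-bs and Hba-a1 (median 881 and 711 UMIs), Defb6 stood at 28.8 CPM in control against 91.3 CPM in TP, a ratio of 3.17 (2.16 to 4.53), on 179 and 37 UMIs. The IFE suprabasal-like and outer bulge-like levels in TP were thus not above every level that may be background. In IFE suprabasal-like cells of TP 63 cells with at least 10 UMIs held 1236 of the 3175 UMIs, up to 105 in a cell, while no cell held more than 9 in inner root sheath-like cells of TP or more than 2 in the unnamed cluster. These counts were not taken at equal depth. The TP medians were 8569 UMIs in IFE suprabasal-like cells, 4129 in inner root sheath-like cells and 711 in the unnamed cluster. IFE basal-like cells stood at 12.7 and 26.3 CPM, a ratio of 2.07 (1.65 to 2.63), and the intervals of this ratio and of the outer bulge-like ratio overlapped that of the background. DPC-like, cortex-like and melanocyte-like cells had 11.4 to 13.5 CPM in control and 16.7 to 19.9 CPM in TP, none of them above inner root sheath-like cells in TP.

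S100a9 outnumbered S100a8 in neutrophil-like cells, the pair had counts of like size in upper hair follicle-like cells, and S100a8 made up nearly all of the pair in DPC-like, melanocyte-like and companion layer and medulla-like cells. The background was itself mostly S100a8, at 76.5% (58.8 to 89.25) of the pair in inner root sheath-like cells of control and 63.2% (38.4 to 83.7) in TP. Cortex-like cells of control, near that background in level, had 28 S100a8 and 0 S100a9 UMIs. The droplet assay counts 1 end of each transcript, so the share of S100a8 in the pair is a share of molecules and needs no division by length. Neutrophil-like cells had 86 S100a8 and 139 S100a9 UMIs in 9 control cells and 604 and 1132 UMIs in 38 TP cells. S100a8 was thus 38.2% (31.8 to 44.9) of the pair in control and 34.8% (32.6 to 37.1) in TP. Those few cells held 10.6% of all S100a8 and 56.3% of all S100a9 UMIs in control. In TP they held 51.3% of all S100a8 UMIs and 1132 of the 1580 S100a9 UMIs. With under 50 control cells, no ratio is given for this class. All 8 neutrophil markers of the list, Csf3r and Retnlg among them, were detected in it, and they summed to 10290 CPM in control and 18600 CPM in TP.

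Upper hair follicle-like cells had the next highest measured level of S100a9 among named classes in each library. S100a9 had 33 UMIs in control (12.3 CPM, 8.48 to 17.3), against 208 in TP (26.7 CPM, 23.2 to 30.6), a ratio of 2.17 (1.495 to 3.23), which was 1.22 at a clustering resolution of 0.5. S100a8 had 35 and 185 UMIs (13.1 and 23.7 CPM), a ratio of 1.82 (1.26 to 2.69), and made up 51.5% (39.0 to 63.8) and 47.1% (42.0 to 52.1) of the pair. The Krt16-led subcluster held 174 of the 185 S100a8 and 196 of the 208 S100a9 UMIs in TP. There S100a8 stood at 17.2 CPM in control and 38.4 CPM in TP (ratio 2.23, 1.37 to 3.85), and S100a9 at 27.7 and 43.2 CPM (ratio 1.56, 1.05 to 2.39). In the Krt15-led subcluster S100a8 went the other way, with 12 UMIs in 4 of 114 control cells (34.9 CPM, 18.0 to 61.0) and 4 UMIs in 4 of 220 TP cells (3.09 CPM, 0.841 to 7.90), a ratio of 0.0883 (0.0208 to 0.291). That ratio rests on few cells, 1 of which held 6 of the 12 control UMIs, and its interval does not cover the spread between cells. In TP 21 of the 44 cells with S100a8 also held S100a9, or 47.7%, against 2.51% of cells without S100a8, at median depths of 9974 and 3610 UMIs. In control 1 of 18 did. Of the 8 neutrophil markers 3 were detected in upper hair follicle-like cells of control, where Csf3r, Retnlg, Hdc, Mmp9 and Clec4d were at 0, and 6 in those of TP, where Retnlg and Clec4d were at 0. Together the 8 markers summed to 26.5 CPM in control and 24.8 CPM in TP.

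DPC-like cells held S100a8 nearly without S100a9. DPC are the mesenchymal cells at the base of the follicle that direct hair growth. In control 345 S100a8 UMIs in 268 of 4108 cells gave 28.7 CPM (25.7 to 31.9), against 12 S100a9 UMIs (0.997 CPM), so that S100a8 was 96.6% (94.2 to 98.3) of the pair. In TP the counts were 88 and 11, and S100a8 was 88.9% (81.0 to 94.3). Only 1 cell in each library held both. The S100a8 level in TP was 9.46 CPM (7.59 to 11.7), a ratio of 0.330 (0.258 to 0.418), while S100a9 stood at its background in each library. Thinned shares with S100a8 were 2.41% (1.94 to 2.95) of control and 1.03% (0.591 to 1.67) of TP cells, against 0.241% and 0.442% of inner root sheath-like cells, and unthinned shares were 6.52% and 4.26%. Of the 8 neutrophil markers 7 were detected in DPC-like cells of control, with Mmp9 at 0. In TP 5 were detected, with Csf3r, Retnlg and Mmp9 at 0. The 8 neutrophil markers summed to 19.0 CPM in control and 17.9 CPM in TP. Their sums were 4.70 and 4.105 CPM in inner root sheath-like cells and 181 and 180 CPM in IFE basal-like cells, so the sum is not particular to neutrophils. Subclusters of DPC-like cells that held at least 20 S100a8 UMIs in each library were lower in TP. The one led by Sostdc1 and Kcnip4 stood at 27.1 and 9.73 CPM, the one led by Rspo4 and Ndnf at 42.9 and 24.5 CPM, and the one led by Vip at 27.7 and 11.8 CPM. The Rspo4 and Ndnf subcluster made up 35.1% of control and 9.89% of TP DPC-like cells. The subclusters led by Igfbp3 and Aspn (0.657% and 17.7%) and by Adamts18 and Lhfpl3 (0.219% and 15.5%) were nearly absent from control, and in TP they held 2 and 8 S100a8 UMIs, 0 Slpi UMIs, and 1 and 0 Camp UMIs. With control subcluster shares the S100a8 ratio of the class was 0.463.

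Melanocyte-like cells and companion layer and medulla-like cells showed the same split. Melanocyte-like cells had 25 S100a8 and 1 S100a9 UMIs in control and 52 and 1 in TP, so S100a8 was 96.2% (80.4 to 99.9) and 98.1% (89.9 to 99.95) of the pair. Here S100a8 stood at 17.7 CPM (11.5 to 26.2) in control, against 79.1 CPM (59.0 to 104) in TP, with a ratio of 4.46 (2.72 to 7.502), where 3.81% of 6697 genes passed 2-fold upwards. The 10 cells with the most held 76.0% of these UMIs in control and 71.2% in TP. A UMI of S100a8 was found in 16 of 484 control and 25 of 140 TP cells, and these cells were deeper than the rest. Their median depths were 11220 UMIs in control and 7525 in TP, against 2006 and 1928 in melanocyte-like cells without S100a8. Companion layer and medulla-like cells, which flank the inner root sheath and fill the hair shaft, had 107 S100a8 and 8 S100a9 UMIs in control and 55 and 2 in TP. Their S100a8 level was 20.1 and 19.1 CPM, a ratio of 0.946 (0.670 to 1.32), so no difference was detectable at this depth. In IFE suprabasal-like cells S100a8 was 61.4% (50.4 to 71.6) of the pair in control and 40.7% (34.0 to 47.6) in TP. Its level there was 2.94 and 1.66 CPM (ratio 0.563, 0.397 to 0.806), in TP no higher than the background of 1.83 CPM in inner root sheath-like cells. S100a9 stood at 1.85 CPM (1.28 to 2.59) in control, above its background interval (0.228 to 1.04). In TP it stood at 2.42 CPM (2.02 to 2.88), overlapping background (0.428 to 2.19). In TP 2 cells held 35 of the 87 S100a8 UMIs, up to 21 in a cell, against at most 2 in inner root sheath-like cells. For S100a9 the highest counts in a TP cell were 12 and 1, not at equal depth. The share may thus be partly background, and how far was not tested. Of the 8 neutrophil markers, Csf3r, Retnlg, Hdc, Mmp9 and Clec4d were at 0 in melanocyte-like cells of each library, and the 8 summed to 5.67 CPM in control and 15.2 CPM in TP.

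**Figure D4:**
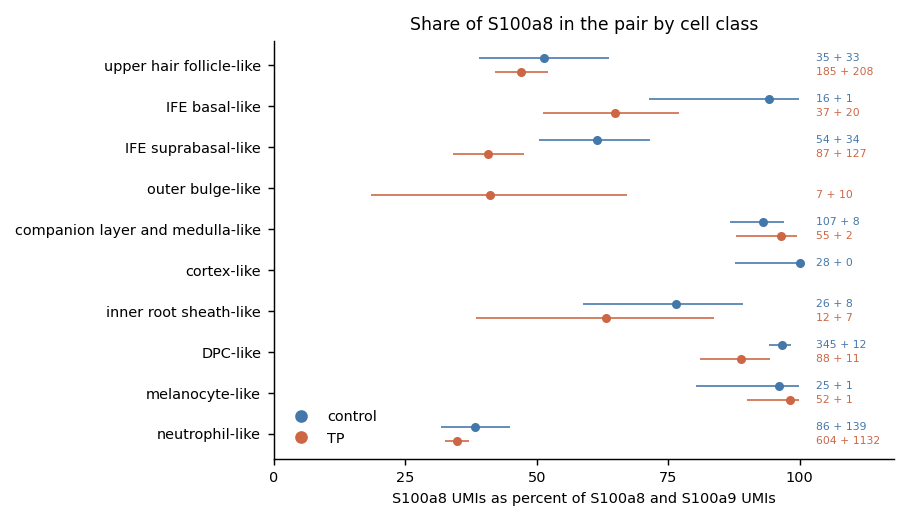
S100a8 UMIs as a percent of S100a8 and S100a9 UMIs together, by class, with Clopper-Pearson 95% intervals, for classes and libraries with at least 15 UMIs of the pair; control is blue, TP orange, and the numbers at the right are S100a8 + S100a9 UMIs. DPC-like, melanocyte-like and companion layer and medulla-like cells lie at 88.9% or more, and neutrophil-like cells at 34.8% and 38.2%.

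After neutrophil-like cells, DPC-like cells had the highest measured S100a8 level in control. Companion layer and medulla-like (20.1 CPM), melanocyte-like (17.7 CPM) and upper hair follicle-like cells (13.1 CPM) followed, and the intervals of neighbours among these 3 overlapped. The DPC-like interval (25.7 to 31.9) also overlapped that of melanocyte-like cells (11.5 to 26.2). It overlapped that of sebocyte-like cells too, which had 0 UMIs and an upper limit of 29.0 CPM. In TP the order was melanocyte-like (79.1 CPM), upper hair follicle-like (23.7 CPM), companion layer and medulla-like (19.1 CPM) and DPC-like cells (9.46 CPM), with overlap between upper hair follicle-like and companion layer and medulla-like cells only. For S100a9 all named classes after upper hair follicle-like cells lay at a measured 3.63 CPM or less. In control some small classes had 0 S100a9 UMIs, with intervals that overlapped that of upper hair follicle-like cells (8.48 to 17.3 CPM). Their upper limits were 29.0 CPM for sebocyte-like, 20.9 CPM for smooth muscle and pericyte-like, 16.4 CPM for macrophage and dendritic-like and 13.9 CPM for lymphocyte-like cells.

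By level, Lcn2 stood highest in endothelial-like, sebocyte-like and neutrophil-like cells, although DPC-like cells held 30.4% of its UMIs in control. Endothelial-like cells, which line blood and lymph vessels, had 37 UMIs in 125 control cells (114 CPM, 80.0 to 157) and 158 UMIs in 200 TP cells (287 CPM, 244 to 335), a ratio of 2.52 (1.75 to 3.71), where 6.06% of 3813 genes passed 2-fold upwards. They held 32.2% and 42.9% of all Lcn2 UMIs. Thinned shares with Lcn2 were 7.37% (3.01 to 14.6) of 95 control cells and 18.1% (12.3 to 25.04) of 155 TP cells, against 0 of 5394 and 0 of 904 inner root sheath-like cells, which allow up to 0.0556% and 0.332%. Unthinned, 18 of 125 and 53 of 200 cells held a UMI.

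The Lcn2 of endothelial-like cells lay mostly in the subcluster led by Ccl21a, Reln, Mmrn1 and Prox1, genes known from lymphatic endothelium. It stood at 290 CPM (191 to 422) in 36 control cells, against 374 CPM (317 to 438) in 131 TP cells, with overlapping intervals. The subcluster led by Flt1 and Mecom stood at 43.0 CPM (20.6 to 79.1) in 89 control cells and 41.6 CPM (15.3 to 90.5) in 69 TP cells. The share of the first subcluster was 28.8% of control and 65.5% of TP endothelial-like cells, and with control shares of both the ratio was 1.20. Both subclusters were drawn without integration of the libraries, since control had few endothelial-like cells. Of the 8 neutrophil markers, Csf3r, Retnlg, Mmp9 and Clec4d were at 0 in endothelial-like cells of each library, and the 8 summed to 9.21 CPM in control (3 UMIs) and 27.2 CPM in TP (15 UMIs), whose part in the Lcn2 difference was not tested.

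Sebocyte-like cells, the lipid-producing cells of the sebaceous gland, had 10 Lcn2 UMIs in 46 control cells (78.7 CPM, 37.7 to 145) and 82 UMIs in 70 TP cells (135 CPM, 107 to 167), with overlapping intervals. In TP 27 of the 70 cells held Lcn2, and 6 of the 7 cells with Slpi were among them. In neutrophil-like cells Lcn2 had 1 UMI in control and 29 in TP (541 CPM, 362 to 776). DPC-like cells had 35 and 12 UMIs (2.91 and 1.29 CPM). The keratinocyte classes had little: Lcn2 stood at 0.373 CPM in control and 0.385 CPM in TP in upper hair follicle-like cells, on 1 and 3 UMIs, and at 0.218 and 0.457 CPM in IFE suprabasal-like cells.

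Slpi rested on few cells. Over all kept cells the 10 cells with the most Slpi held 33.5% of its UMIs in control and 57.8% in TP, against 16.1% and 10.9% for Defb6, and without them the ratio of TP over control was 1.37. In upper hair follicle-like cells Slpi had 2 UMIs in control (0.746 CPM) and 152 in TP (19.5 CPM, 16.5 to 22.8), but 146 of the 152 lay in 3 cells, the highest with 75. All 3 belonged to the Krt16-led subcluster, where 409 TP cells held 148 UMIs and 175 control cells 0, which allows up to 2.87 CPM. Thinned shares were 0.3799% of 1316 TP cells and 0 of 905 control cells, which allows up to 0.331%, so the share of cells did not differ detectably at this depth.

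**Figure D5:**
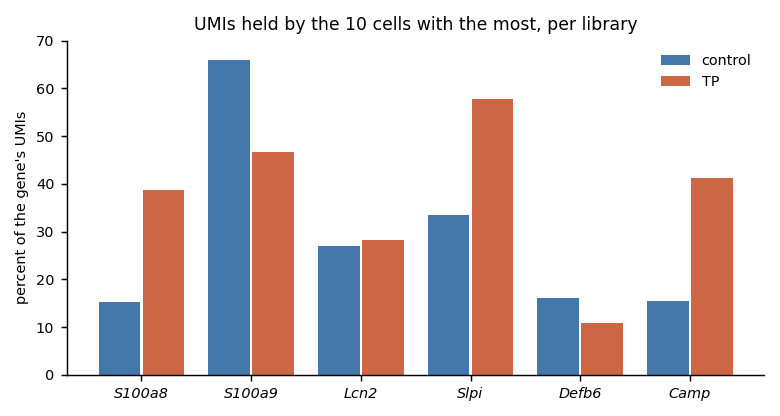
Percent of each gene's UMIs held by the 10 cells with the most UMIs of that gene, over all kept cells of each library (control blue, TP orange). Slpi in TP (57.8%) and S100a9 in control (66.0%) and TP (46.8%) rested on few cells, Defb6 least of all in TP (10.9%).

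IFE suprabasal-like cells had 6 Slpi UMIs in control (0.327 CPM) and 137 in 44 TP cells (2.61 CPM), a ratio of 7.98 (3.57 to 22.1), and 4 TP cells held 65 of the 137. IFE basal-like cells had 1 and 54 UMIs, and a single TP cell held 35. In outer bulge-like cells the direction was the opposite, with 50 UMIs in 6 control cells, 20 of them in 1 cell, and 4 UMIs in 4 TP cells, a ratio of 0.0130 (0.00342 to 0.0355). Few cells thus set the Slpi values of IFE basal-like and outer bulge-like cells. Members at least 2-fold higher were Slpi and Defb6 among the 4 tested in IFE suprabasal-like cells, where 2.17% of 12960 genes were, and S100a9 and Slpi among the 4 tested in upper hair follicle-like cells, where 2.04% of 10275 genes were. Slpi and Defb6 also passed 2-fold upwards among the 3 tested in IFE basal-like cells, where 1.57% of 11483 genes did. Of the 2 tested in companion layer and medulla-like cells Defb6 did, on 56 and 84 UMIs (ratio 2.76, 1.94 to 3.94), where 1.99% of 10207 genes did, with 17 of the 84 in 1 cell. Its level there was 10.55 CPM in control and 29.1 CPM (23.2 to 36.0) in TP. Background in inner root sheath-like cells was 11.8 CPM in control and 22.2 CPM (18.7 to 26.1) in TP. The intervals of the TP levels overlapped, and so did those of the 2 ratios. Of the 2 tested in outer bulge-like cells Defb6 was higher and Slpi lower, where 3.74% and 4.32% of 10794 genes were. At a clustering resolution of 0.5 the Slpi ratio of upper hair follicle-like cells was 1.59, so neither this call nor that of S100a9 held.

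In DPC-like cells Slpi was spread more evenly. It had 79 UMIs in 76 of 4108 control cells (6.56 CPM, 5.20 to 8.18) and 14 UMIs in 12 of 1668 TP cells (1.51 CPM, 0.823 to 2.52), a ratio of 0.229 (0.120 to 0.408), with at most 3 UMIs in a cell. The thinned shares were 0.562% (0.349 to 0.858) and 0.258% (0.0703 to 0.659), which overlapped, against 0.0371% of inner root sheath-like cells in control and 0 of 904 in TP, which allows up to 0.332%. With control subcluster shares the ratio was 0.510. In the Sostdc1 and Kcnip4 subcluster Slpi stood at 9.10 and 2.16 CPM (ratio 0.238, 0.0822 to 0.565), and in the Rspo4 and Ndnf subcluster at 6.71 and 8.17 CPM (ratio 1.22, 0.445 to 2.90). In neutrophil-like cells of TP 15 UMIs in 11 of 38 cells gave 280 CPM (157 to 461), and in control there were 0. Macrophage and dendritic-like cells had 16 TP UMIs in 5 of 325 cells (10.6 CPM), 15 of them in the subcluster led by the MHC class II genes Cd74, H2-Aa and H2-Ab1.

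Camp was detected chiefly in DPC-like cells in control and stood lower there in TP. In control 87 UMIs in 78 of 4108 cells gave 7.23 CPM (5.79 to 8.91), and these were 67.4% of all Camp UMIs. In TP 14 UMIs, 41.2% of all 34, gave 1.51 CPM (0.823 to 2.52), a ratio of 0.208 (0.109 to 0.369). The highest count in a DPC-like cell was 2 in control and 3 in TP, so no small set of cells carried it in control. The thinned share was 0.696% (0.455 to 1.02) of 3734 control cells, above the 0.0185% of inner root sheath-like cells, and 0.0645% of 1551 TP cells, on 1 cell. Of the other named classes, those with more than 2 Camp UMIs in a library lay between 0.0952 and 0.463 CPM, and unnamed cells stood at 0.859 CPM in control against 0.622 CPM in TP.

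Among DPC-like subclusters with more than 1 Camp UMI in each library, Camp was highest in the Rspo4 and Ndnf one, at 14.8 CPM (11.1 to 19.2) on 55 UMIs in 1440 control cells and 8.17 CPM (3.28 to 16.8) on 7 UMIs in 165 TP cells, a ratio of 0.554 (0.213 to 1.22) whose interval includes equal levels. The Vip-led subcluster stood at 8.16 and 2.18 CPM (ratio 0.267, 0.0716 to 0.857). With the control shares of subclusters the ratio of the class was 0.432. In control 18 of 268 cells with S100a8 also held Camp, or 6.72%, against 1.56% of cells without S100a8, at median depths of 3528 and 2396 UMIs. In DPC-like cells 3 of the 4 members with at least 50 UMIs, S100a8, Slpi and Camp, were at least 2-fold lower in TP, where 8.58% of 12965 genes were. The Slpi call ended with control subcluster shares (0.510).

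Across 31 points, the classes and libraries with at least 50 cells, the genes with at least 200 UMIs whose log2(CPM + 1) was most like that of Defb6 were Krt79 (r = 0.925), 2310046K23Rik (r = 0.880) and Cst6 (r = 0.875). For S100a9 they were Cst6 (r = 0.875), Sprr1a (r = 0.842) and 2310046K23Rik (r = 0.791), and S100a9 and Defb6 had r = 0.825 with each other. For Lcn2 they were Il7 (r = 0.837), Gm16685 (r = 0.816) and Ccl21a (r = 0.765), a chemokine of lymphatic endothelium. For Camp they were Ptchd4 (r = 0.885), Cxcl5 (r = 0.879) and Bves (r = 0.866). S100a8 (Kif26b, r = 0.693; Slc24a4, r = 0.677; Kiss1r, r = 0.670) and Slpi (Rbm47, r = 0.698; Apoe, r = 0.664; Mfsd7a, r = 0.662) had weaker likeness, and S100a8 and S100a9 had r = 0.406. These points share 2 libraries, and neutrophil-like cells, with under 50 cells in each, are not among them. Krt79 and Cst6 are also markers from which the upper hair follicle-like class was named. The likeness to them of genes high in that class, Defb6 and S100a9, was thus partly set in advance.

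Other genes of the same pathways are given by lists, over all kept cells and with the pseudocount, which keeps genes of low level from passing 2-fold. Of 16 tested other secreted antimicrobial genes 3 passed 2-fold upwards in TP and 0 downwards, where 1.7% and 0.877% of all genes tested did, with a median log2 difference of 0.25 against -0.06 over all genes tested. These were Lyz2, a lysozyme (8.30 and 66.4 CPM, highest in macrophage and dendritic-like cells), Spink5, a protease inhibitor of the cornified layers (197 and 696 CPM), and Rnase4 (53.8 and 175 CPM, highest in DF-like cells). Defb1, another beta-defensin, is named here after its values were seen. It stood at 10.7 and 30.7 CPM, a plain ratio of 2.88 (2.69 to 3.08), and was highest in upper hair follicle-like cells, as Defb6 was. By the plain ratio 10 of the 16 were at least 2-fold higher and 0 lower, where 8.22% and 10.9% of all genes tested were.

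A list of inhibitors held whey acidic protein genes, the family of Slpi, and Spint1, a Kunitz-type inhibitor outside that family (97.9 and 65.1 CPM). Of its 8 tested genes 3 were higher and 0 lower, with a median of 0.33. Wfdc21 stood at 8.82 and 52.3 CPM, Wfdc5 at 4.94 and 22.8 CPM, and Wfdc17, highest in macrophage and dendritic-like cells, at 1.99 and 15.4 CPM. Of 5 tested proteases on which such inhibitors act, Klk5 (29.6 and 139 CPM), Klk7 (45.0 and 263 CPM) and Klk8 (32.7 and 138 CPM), kallikreins of the cornified layers, were higher and St14 (131 and 59.4 CPM) was lower. Of 10 tested S100 genes of the same cluster, S100a4 (15.2 and 44.0 CPM) and S100a11 (302 and 653 CPM) were higher and 0 were lower. Of 8 receptors 0 were past 2-fold in either direction, and by the plain ratio Cd33 was higher and Ager lower. Tlr4, Ager, Cd36 and Cd33 lay under the pseudocount in each library, so they could not be called with it. Of 26 cytokines, receptors and factors upstream 4 were higher and 0 lower, with a median of 0.50. These were Cxcl2, a neutrophil chemokine (3.71 and 35.4 CPM, highest in neutrophil-like cells), Cebpd, a C/EBP factor (8.63 and 43.3 CPM), Nfkbiz, a partner of NF-kB (113 and 275 CPM), and Jund (328 and 717 CPM). By the plain ratio 5 of the 8 inhibitors, 3 of the 5 proteases, 3 of the 10 S100 genes and 12 of the 26 upstream genes were higher, and 0, 2, 0 and 1 were lower, beside the same 8.22% and 10.9% of all genes tested. These sums too include the difference in makeup of the libraries, and its part in them was not tested.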

How the data were processed

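Single-cell 3′ libraries (10x GEM-X) of pooled mouse skin were compared, 1 library a group. The files deposited by the authors hold raw UMI counts for every gene in every barcode, made with Cell Ranger 8.0.1 on mm10, with no normalization. Barcodes were kept here if they held 200 to 8000 genes and no more than 10% mitochondrial UMIs, less the 7.5% that scored highest as doublets in a rewritten nearest-neighbour procedure (25% artificial doublets). Total counts were 130999979 UMIs in 45709 control and 166929585 UMIs in 25931 TP barcodes. Cells were integrated by reciprocal PCA and clustered at resolution 1 in Seurat 5.3.0 (R 4.3.3), with 106 genes, the members and the lists, kept out of the clustering features. Subclusters were drawn at resolution 0.3, or 0.6 for immune cells. Integration was used for these too, except for endothelial-like cells, which were too few in control. A class needed a marker score of 1.25 and at least 3 markers, and main clusters with an immune score of 2.5 were clustered again. A cluster stayed unnamed if its cell cycle score was higher, or if more of its leading genes were markers of another class. It also stayed unnamed if it was shallow and none of its leading genes was a marker of its class. These score limits, the splitting off of sebocyte-like cells and the extent of the upper hair follicle-like class were chosen after the clusters were seen.

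UMIs were summed per class and library and divided by all UMIs of the class. Intervals are exact 95% Poisson (levels), conditional binomial (ratios) and Clopper-Pearson (shares), and cover counting error only. A limit for 0 counts is 3 counts. Ratios were given for classes with at least 50 cells in each library and, for 2-fold calls, genes with at least 50 UMIs. Because each group is 1 library of pooled mice, no test between groups was possible and no p-value is given. Scale factors came from edgeR 4.0.16 (TMM). Sums and intervals used Python 3.11.15 with scipy 1.17.1, and were tested on simulated data. The 6 members were always named, of each list the genes with at least 200 UMIs past 2-fold, at most 6 by size, and for likeness the 3 genes with the highest Pearson r among those with at least 200 UMIs. The members and lists were chosen with earlier results of these data known. The alternatives tried were other scaling, other pseudocounts, doublets kept, all barcodes, control cluster shares, another clustering resolution, another thinning depth and cells left out. Alternatives named as added were chosen after seeing the data.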

Additional observations from a re-analysis of the deposited data

How the results depend on the processing

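Values are log2 ratios of TP over control over all kept cells. S100a8 (0.23) turned to -0.24 with control cluster shares, to -0.65 without neutrophil-like cells and to -0.24 without the 10 highest cells of each library, and was 0.48 with TMM. S100a9 (2.37) was 2.63 with TMM, 0.84 with control cluster shares, 2.57 as the mean of ln(counts per 10000 + 1), 1.75 without neutrophil-like cells and 3.02 without the 10 highest cells. Lcn2 (1.37) was 0.90 with control cluster shares and 1.80 by that mean, and Slpi (1.11) was 0.45 with control cluster shares and 0.45 without the 10 highest cells. Defb6 (1.74) was 2.00 with TMM, 1.64 with doublets kept, 1.63 over all deposited barcodes, 0.60 with control cluster shares, 1.66 by the mean and 1.83 without the 10 highest cells. Camp (-2.23) was -1.06 with control cluster shares and -1.45 by the mean. The 299 genes at least 2-fold higher became 782 with a pseudocount of 0.01 and 1444 with none, and the 154 lower became 672, 1920 and, with TMM, 74. The other 24 alternatives of these results moved them by less than their counting interval or 1.5 times. Of the ratios within a class, 20 moved by more and 78 did not. Of the class levels, each recomputed without the 10 highest cells, 50 moved and 5 did not, and of the shares of cells, unthinned or thinned to 2000 UMIs, 58 moved and 10 did not. At a clustering resolution of 0.5 the Slpi ratio of upper hair follicle-like cells was 1.59 in place of 26.1. Apart from what each alternative leaves out or reweights, the cause was not tested. An alternative with called doublets kept in their nearest class was not run. No paired analysis was possible because each group is 1 library. Depth limits Camp and Lcn2 most, with 34 Camp UMIs in TP and 115 Lcn2 UMIs in control.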

Other observations

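In an unnamed immune subcluster led by Cd3g, Cd7 and Cd247, 1 of 82 control cells held 44 of the 49 Defb6 UMIs, and 1 of 30 TP cells held all 27 S100a9 UMIs. In the unnamed subcluster led by Lsamp and Arhgap45, 9 S100a8 and 5 S100a9 UMIs lay in 2 cells and 1 cell of 63 TP cells. Among kept cells, 188 barcode sequences were found in both libraries.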
